A study of Rattus norvegicus with 16 samples.

Results

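The kidneys of rats given an iodinated contrast medium were compared with the kidneys of rats given saline, 8 h after the injection, for their microRNAs (miRNAs). The comparison used the 8 kidney arrays of a series of 16, whose other 8 arrays read blood plasma. Of the 350 rat miRNAs on the array, 176 were compared, which were those that the scanner software called detected on all 4 arrays of at least 1 kidney group.

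All 24 rats were male Sprague-Dawley animals of 250 to 300 g. Every rat, controls included, had gone 3 days without water and had received furosemide, a diuretic, intramuscularly at 10 mg/kg. The treated rats then received Omnipaque (iohexol, a nonionic low-osmolar contrast medium, at 350 mg iodine per ml) into the tail vein over 5 min at 10 ml/kg, and the control rats received the same amount of normal saline. The labels call the treated group CI-AKI, for contrast-induced acute kidney injury, and give no measure of kidney function. The age of the rats is not given in the sources used here. Each pool joined the RNA of 3 rats, with 4 saline pools and 4 contrast pools, so the spread between pools is that of means of 3 animals and no single animal can be seen. Groups were taken from the sample titles. The samples also carry 8 letter codes of unstated meaning, each used once in plasma and once in kidney, and 6 of the 8 stand beside opposite treatments in the 2 tissues. If a letter marks 1 set of rats, some treatment labels are wrong, and the directions given here rest on the kidney titles.

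A miRNA is a short RNA that guides the silencing complex to messenger RNAs, chiefly through bases 2 to 8 of its 5′ end, the seed, and so lowers their output. Contrast media injure the kidney by constricting vessels of the oxygen-poor medulla and by direct toxicity to tubule cells, and withholding water and giving a diuretic makes the animal more susceptible. Kidney tubule cells are rich in the miR-30, miR-192 and miR-200 families, and miR-21 is often linked to kidney injury.

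Values are scaled array signals in arbitrary units, on a linear scale unless a log2 difference (contrast minus saline) is named. They were scaled within the kidney slide to the 75th percentile of the miRNAs detected on all 8 kidney arrays, as the processing text describes. Probes of different miRNAs bind differently, so a level is compared only with the same miRNA on another array.

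The mature sequences of the miRNAs on which the results turn are shown first, from RefSeq on rat build GRCr8, 5′ to 3′, with the seed in capitals. The array files name the miRNAs but not their probe sequences, so the arm of each hairpin was taken from the current name of the strand. The first 4 are those with the largest differences.
miR-327: cCUUGAGGggcaugagggu
miR-466b: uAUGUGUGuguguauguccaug
miR-494: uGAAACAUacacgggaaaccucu
miR-188: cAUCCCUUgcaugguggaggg
The next 6 come from a pair of related gene clusters, and show the seed that miR-27a and miR-27b share and the seed that miR-23a and miR-23b share.
miR-27a: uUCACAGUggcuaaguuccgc
miR-27b: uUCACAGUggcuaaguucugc
miR-24: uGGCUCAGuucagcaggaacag
miR-24-2*: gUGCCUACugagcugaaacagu
miR-23a: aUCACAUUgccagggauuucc
miR-23b: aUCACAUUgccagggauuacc
Both strands of miR-139 are given because 1 of them followed the position on the slide.
miR-139-3p: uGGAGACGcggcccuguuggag
miR-139-5p: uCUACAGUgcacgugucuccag

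MiR-327, miR-466b, miR-494 and miR-188 have 4 different seeds, and in the RefSeq table of 693 rat mature miRNA names each of these seeds belongs to 1 name. They also lie apart in the genome (GRCr8). Mir327 is on chromosome 20 at 13161077 to 13161170, minus strand, inside no other annotated gene. The mature miR-466b is encoded by 2 copies on chromosome 17, at 72942513 to 72942534 and 72945547 to 72945568, minus strand, both within Sfmbt2, a Polycomb-group gene that holds a large block of repeated miRNA genes. Mir494 is on chromosome 6 at 134550115 to 134550197, plus strand, within the long non-coding RNA gene LOC102555254, and belongs to the imprinted Dlk1-Dio3 miRNA cluster. Mir188 is on chromosome X at 17919585 to 17919664, plus strand, within the chloride channel gene Clcn5.

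The 8 arrays of the kidney had correlations of log2 signal of 0.990 to 0.998 within a group and 0.983 to 0.993 between groups, over the 176 miRNAs, which are not independent replicates. Contrast pool 3 stood apart: its total miRNA signal was 59735, against 116820 to 124853 in the other contrast pools and 89065 to 119803 in saline pools. In the first principal component, which held 47.6% of the variance, every contrast pool lay on one side and every saline pool on the other, but miR-327 alone carried 61.9% of that component. With miR-327 left out, the first component held 36.01% and set contrast pool 3, at -3.95, apart from the other 7 pools, at -0.33 to 1.63. Of the markers of tissue, the tubule miRNAs miR-192, miR-194 and miR-204 and all members listed for the miR-30 and miR-200 families were detected on all 8 arrays. The liver miRNA miR-122, the neuronal miR-124 and miR-215, a relative of miR-192, were detected on none. Markers of other tissues were not all absent. Of 5 neural miRNAs listed, 4 (miR-9, miR-9*, miR-128 and miR-7a) were detected on all 8 arrays, as were muscle miR-499 and pancreatic miR-375.

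By the test, 3 miRNAs were higher in the contrast pools and none lower. MiR-327 and miR-466b entered the test only through their detection on the contrast arrays. Their calls thus rest in part on the group where they are high. MiR-327 read 3.095, 2.36, 0.916 and 1.89 in saline pools 1 to 4 and 18.9, 29.5, 31.3 and 24.5 in contrast pools 1 to 4. Each contrast pool was thus several times above each saline pool, and the scanner called miR-327 detected on 0 of 4 saline arrays and on 4 of 4 contrast arrays. Since the saline level is only a bound, the contrast level was at least 10.6-fold higher, and the fitted log2 difference was 3.52 (SE 0.21, limma adjusted p = 5.8e-06). In whole kidney, more RNA per cell and more cells that carry a miRNA cannot be told apart, and a change in the blood held by the tissue is part of the same measurement; miR-327 was detected on all 8 plasma arrays of the series. The part of blood was not tested, but 2 blood markers gave values: the red cell miR-451 read 216 to 438 in saline pools and 364 to 402 in contrast pools (log2 difference 0.26, SE 0.18), and the myeloid miR-223 read 148 to 169 and 145 to 185 (0.013, SE 0.09). Of the 3 tested red cell miRNAs 2 had higher means, miR-451 and miR-144 (0.13, SE 0.15). The mean of 1, miR-16, was lower (-0.013, but higher with the percentile over all miRNAs). The median of the 3 was 0.13, against 0.028 over all 176, and 0 passed, against 1.70% of all 176.

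MiR-466b read 2.67, 3.23, 3.07 and 3.70 in saline pools and 5.90, 6.45, 6.32 and 6.85 in contrast pools. The groups were narrow and did not overlap, with a mean of 3.17 ± 0.427 against 6.38 ± 0.390 (SD, n = 4). The log2 difference was 1.02 (SE 0.10, 95% interval 0.79 to 1.25, limma adjusted p = 0.000287). Both groups were near the detection limit, and the saline arrays had 1 detection call against 4 of the contrast arrays. Its 2 probes differed in signal: the brighter probe had means of 4.98 and 10.3, and the dimmer one 1.36 and 2.41, where the lowest contrast array (2.19) lay below the highest saline array (2.33). Before scaling the signal was 2.39, 3.90, 3.23 and 3.45 in saline pools and 7.11, 7.47, 3.79 and 7.71 in contrast pools, so that contrast pool 3 fell among the saline pools and the call was lost at a similar size (log2 difference 0.98, adjusted p = 0.088). The other repeats of the same locus on the array, miR-466c and miR-297, were detected on none of the 8 arrays.

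MiR-494, which has been linked to ischaemic kidney injury, read 16.2, 14.5, 18.3 and 15.9 in saline pools and 38.7, 23.7, 27.9 and 23.3 in contrast pools. Contrast pool 1 was highest, and the lowest contrast pool still exceeded the highest saline pool. The log2 difference was 0.78 (SE 0.16, 95% interval 0.42 to 1.14) with a limma adjusted p of 0.048, just inside the threshold of 0.05. Both probes showed it, with means of 23.4 against 41.4 and of 9.02 against 15.4. The call was the least firm of the 3, since it was lost in 18 of 26 alternative settings, with differences between 0.22 and 0.86; without contrast pool 3 the difference was 0.76 (adjusted p = 0.11). With the left and right side of the slide as a block, added after the data were seen, the adjusted p was 0.0096.

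These 3 miRNAs were 1.70% of the 176 tested in limma after Benjamini-Hochberg adjustment, all higher. Before adjustment, 11 miRNAs (6.25%) had p under 0.05, and these were also all higher. For 9 miRNAs (5.11%) every contrast pool lay above every saline pool, and for 0 miRNAs below. That count was 2 without scaling, 4 with spike-in scaling and 14 with the percentile over all miRNAs. The counts of p under 0.05 and of non-overlap both hold miR-327, miR-466b and miR-188, which entered only through their contrast calls. The direction of both counts thus rests in part on the filter. The mean was higher in contrast pools for 106 of the 176 miRNAs and lower for 70. The side of that majority depended on scaling, since 76 were higher and 100 lower without scaling and 79 and 97 with quantile normalization.

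**Figure D1:**
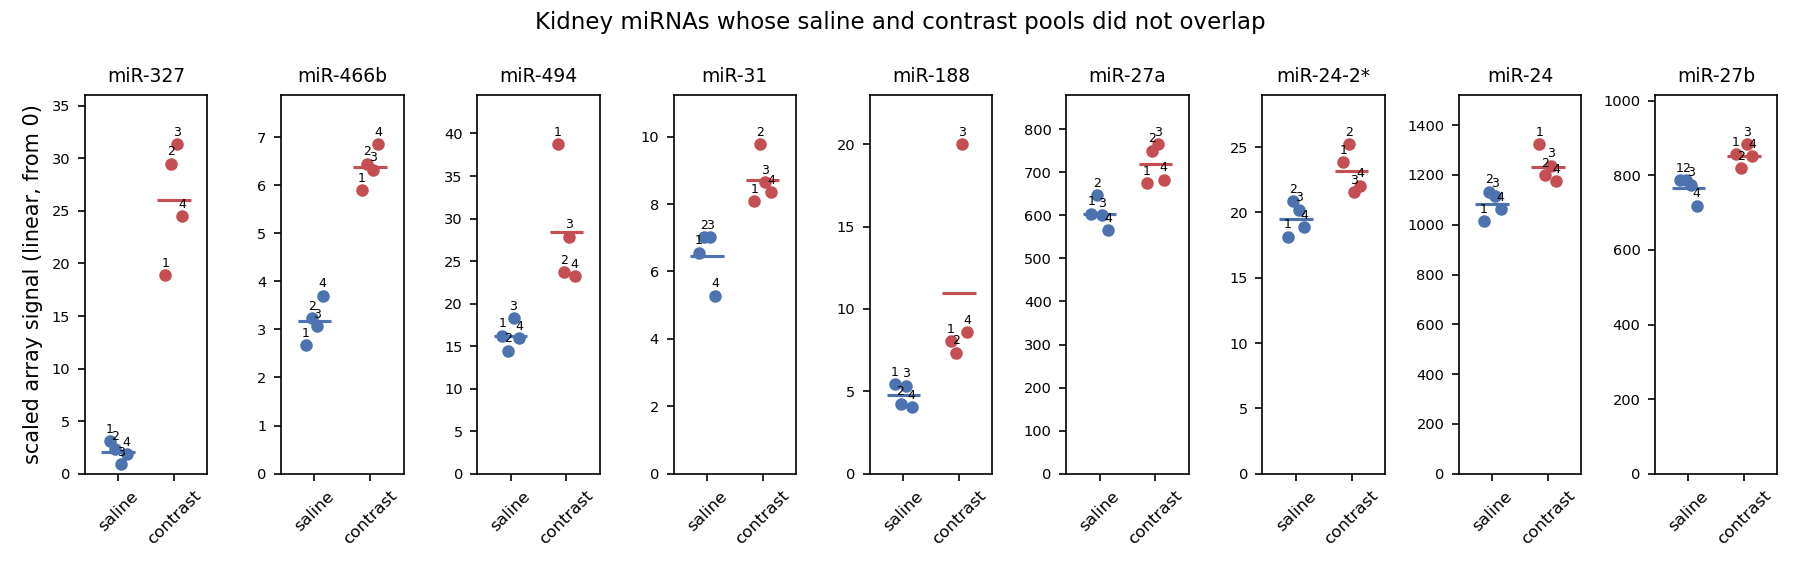
Scaled signal (linear axes from 0, a separate scale in each panel) of the 9 miRNAs whose saline pools (blue) and contrast pools (red) did not overlap; points are pools with their numbers and lines are group means (n = 4). MiR-327 went from 0.916 to 3.095 in saline pools to 18.9 to 31.3 in contrast pools, while the means of miR-27a, miR-24 and miR-27b differ by 1.19, 1.14 and 1.11-fold.

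Of the 6 non-overlapping miRNAs that did not pass the test, miR-188 had the largest difference. It was also a miRNA that the study went on to examine. Its signal was 5.45, 4.24, 5.35 and 4.05 in saline pools and 8.03, 7.35, 19.997 and 8.58 in contrast pools. Contrast pool 3 stood far above the others, which widened the spread, and the log2 difference was 1.08 (SE 0.29, adjusted p = 0.17). Without that pool the difference was smaller, 0.74, but passed (adjusted p = 0.020). Leaving out any other pool gave no call (limma adjusted p up to 0.45). MiR-188 had 1 detection call on saline arrays and 4 on contrast arrays, so it entered the test only through the contrast arrays. The pass without contrast pool 3 thus rests in part on the group where it is high. Before scaling, pool 3 was closer to the rest, with 9.68, 8.52, 11.99 and 9.66 in contrast pools against 4.88, 5.13, 5.63 and 3.78 in saline pools. None of its neighbours in the same X-linked cluster passed: the log2 differences were 0.092 for miR-500, 0.048 for miR-652, 0.021 for miR-532-3p and -0.0081 for miR-532-5p, and miR-501 was not detected.

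MiR-31 read 6.55, 7.02, 7.01 and 5.28 in saline pools and 8.09, 9.77, 8.64 and 8.35 in contrast pools. The groups stood close together without touching. The log2 difference was 0.44 (SE 0.11, 95% interval 0.20 to 0.68, adjusted p = 0.12) and crossed the threshold with 2 other scalings (adjusted p = 0.047 and 0.0498). Both of its probes had higher means, at 8.53 against 11.5 and at 4.40 against 5.96.

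The remaining 4 of the 9 belonged to 1 group of genes. MiR-23, miR-27 and miR-24 are made from a pair of duplicated clusters, which in GRCr8 span 389 bases of chromosome 19 (40859455 to 40859843) and 814 bases of chromosome 17 (1818669 to 1819482, within Aopep). Of the 9 strands of these clusters on the array, 6 were tested, 6 had higher means, 4 did not overlap (5.11% of all 176 did not), and 0 passed the test (1.70% of all did); their median log2 difference was 0.17, against 0.028 over all 176. These strands share transcripts and, in part, sequence, so they are not separate samples of an effect. All 6 were also higher in each of the alternative settings, several of which, such as other floors or blocks, leave these differences unchanged. Without scaling, only miR-327 and miR-188 had every contrast pool above every saline pool, so the strands of these clusters overlapped.

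MiR-27a read 604, 646, 601 and 566 in saline pools and 675, 751, 765 and 683 in contrast pools. These are bright signals with small gaps, a log2 difference of 0.25 (SE 0.07, 95% interval 0.09 to 0.41, adjusted p = 0.19), or 1.19-fold. Its partner of the same seed, miR-27b, read 786, 787, 775 and 719 against 857, 818, 883 and 851, a log2 difference of 0.15 (SE 0.06). The 2 differ at 1 base of their sequences shown above, and cross-binding of their probes was not tested.

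MiR-24, which both clusters encode in the same mature sequence, read 1013, 1132, 1117 and 1064 in saline pools and 1323, 1200, 1238 and 1174 in contrast pools. Contrast pool 1 was the highest. The log2 difference was 0.19 (SE 0.07). The other strand of the chromosome 19 hairpin, miR-24-2*, has a different sequence and is much dimmer, yet its groups were also apart, at 18.1, 20.9, 20.2 and 18.9 against 23.9, 25.2, 21.5 and 22.1, a log2 difference of 0.25 (SE 0.08). MiR-23a and miR-23b, the first members of the clusters, overlapped between groups and had differences of 0.08 and 0.05 (SE 0.08 and 0.06).

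At the lower end nothing passed, and the values give the bound. The 8 lower miRNAs with the smallest p had log2 differences between -0.25 and -0.098. MiR-19a of the miR-17-92 cluster, which promotes cell growth, read 35.1, 45.3, 44.5 and 30.9 in saline pools and 34.1, 35.2, 29.7 and 31.2 in contrast pools. Only saline pools 2 and 3 stood above the contrast pools, and the log2 difference was -0.24 (SE 0.13). MiR-301a was at -0.18, miR-34a, a target of p53, at -0.15, miR-338 at -0.14, miR-365 at -0.12, miR-139-5p at -0.10 and let-7d at -0.098.

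MiR-96 had the lowest of these values, -0.25 (SE 0.19), and its contrast pools disagreed. It read 96.6, 119, 141 and 103 in saline pools, and 74.2, 112, 79.1 and 127 in contrast pools, with contrast pools 1 and 3 below every saline pool. MiR-183 and miR-182, made from the same primary transcript as miR-96 and singled out after their values were seen, split in the same way. MiR-183 read 46.1, 49.1, 57.1 and 46.8 in saline pools and 33.4, 52.3, 35.04 and 54.8 in contrast pools. MiR-182 read 14.9, 12.8, 12.7 and 11.03 against 9.57, 14.6, 8.25 and 15.2. Contrast pools 1 and 3 also shared the left side of the slide, as did saline pools 1 and 3. Over all 8 arrays the log2 difference of left minus right was -0.28 for miR-96, -0.27 for miR-183 and -0.27 for miR-182. The part of slide side in this split was not tested.

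With the scaling used here, the 4 pools a group gave narrow intervals for most miRNAs. Log2 differences had a median SE of 0.092, and the 95% interval lay within 0.5 on both sides of 0 for 149 of the 176 miRNAs and within 1 for 168. The count within 0.5 was 0 without scaling, 0 with spike-in scaling and 29 with all 16 arrays in one fit. MiR-21 had the brightest signal and a log2 difference of -0.0014 (95% interval -0.28 to 0.28). It read 6432, 4844, 6411 and 5912 in saline pools and 6192, 4822, 6713 and 5867 in contrast pools, with pool 2 lowest in both groups. Pools 1 and 3, on the left side of the slide, all lay above pools 2 and 4 for miR-21 (left minus right 0.27 on the log2 scale). Of the other bright miRNAs, miR-22 was at 0.10 and let-7f at -0.083. The 27 miRNAs with wider intervals were mostly dim; the widest was miR-139-3p, from -1.56 to 1.51.

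**Figure D2:**
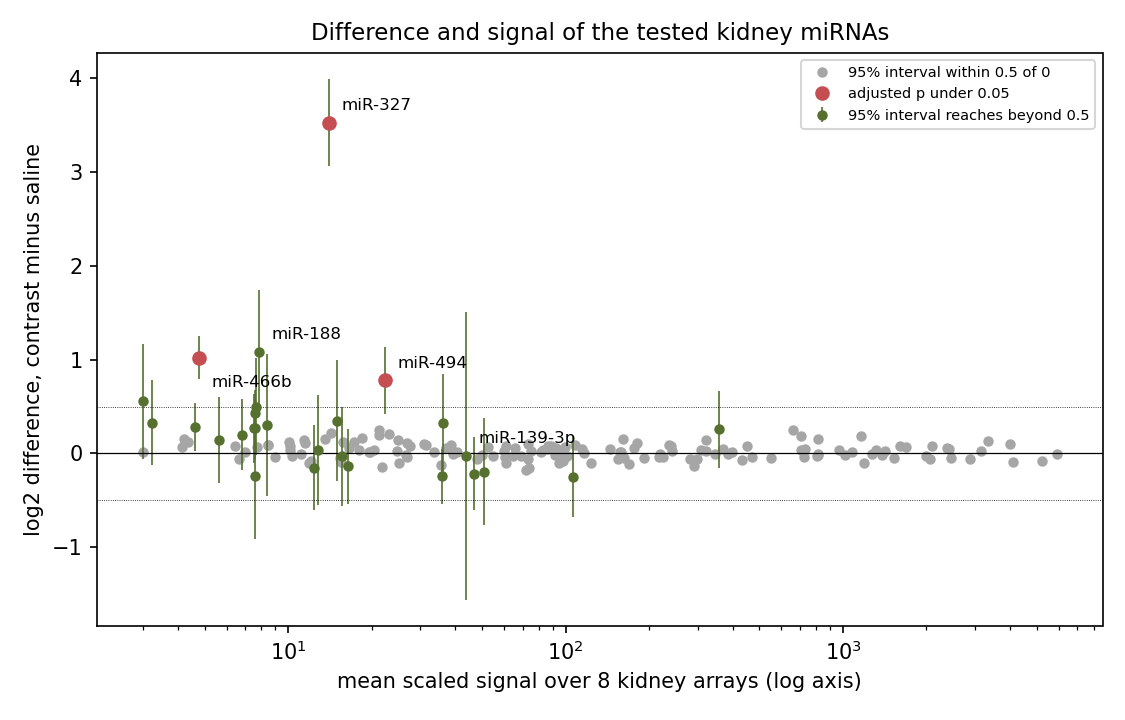
Log2 difference (contrast minus saline) against mean scaled signal (log axis) of the 176 tested miRNAs; red points passed limma at adjusted p 0.05, bars are 95% intervals (drawn where they reach beyond 0.5 from 0, and for the 3 that passed), and dotted lines mark 0.5 either side of 0. The 149 grey points have intervals inside those lines.

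The differences were unevenly spread over the range of signal. Of the 44 dimmest miRNAs, with mean signals of 2.997 to 16.4, 32 had higher means in contrast pools, with a median log2 difference of 0.10. Of the 44 brightest, from 346 to 5899, 23 were higher and the median was 0.012. The dimmest 44 held 2 of the 3 calls and 4 of the 9 non-overlapping miRNAs. The filter lets a dim miRNA in when only 1 group detects it, and that group was contrast more often than saline, so these counts describe the arrays and support nothing further.

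Detection calls leaned the same way. All 8 arrays detected 163 miRNAs, none detected 126, and 61 were detected on some. Of those 61, 52 had more calls among contrast arrays, 4 more among saline arrays and 5 as many. On all 4 contrast arrays and at most 1 saline array, 5 miRNAs were detected, namely miR-327, miR-466b, miR-188, miR-335 and miR-330*, and 0 the other way round. Contrast pools differed in this: of the 52, pools 1 and 2 detected 44 each, pool 3 detected 11 and pool 4 19, while saline pools 1 to 4 detected 8, 24, 0 and 8.

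The total of detected miRNAs was 179, 195, 169 and 178 on saline arrays and 216, 216, 174 and 189 on contrast arrays. Contrast pool 3 had fewer than saline pools 1, 2 and 4. The difference of 18.5 gave p = 0.23 in an exact permutation test (two-sided, 70 labellings, smallest possible p 0.0286); arrays in the upper row of the slide differed by 29 and those in the lower row by 8. The arrays' negative-control spots, which match no rat RNA, also read higher on contrast arrays. Their mean signal, which lies below 0 after background subtraction, was -1.95, -1.76, -2.05 and -1.80 on saline arrays and -1.69, -1.28, -1.60 and -1.42 on contrast arrays. The groups did not overlap, at a difference of 0.39 (exact permutation p = 0.0286, the smallest possible, and 0.23 after adjustment over 8 such array measures). Upper-row arrays differed by 0.37 and lower-row arrays by 0.41, with 2 arrays of each group in a row. The part of this shift in the detection of dim miRNAs was not tested.

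**Figure D3:**
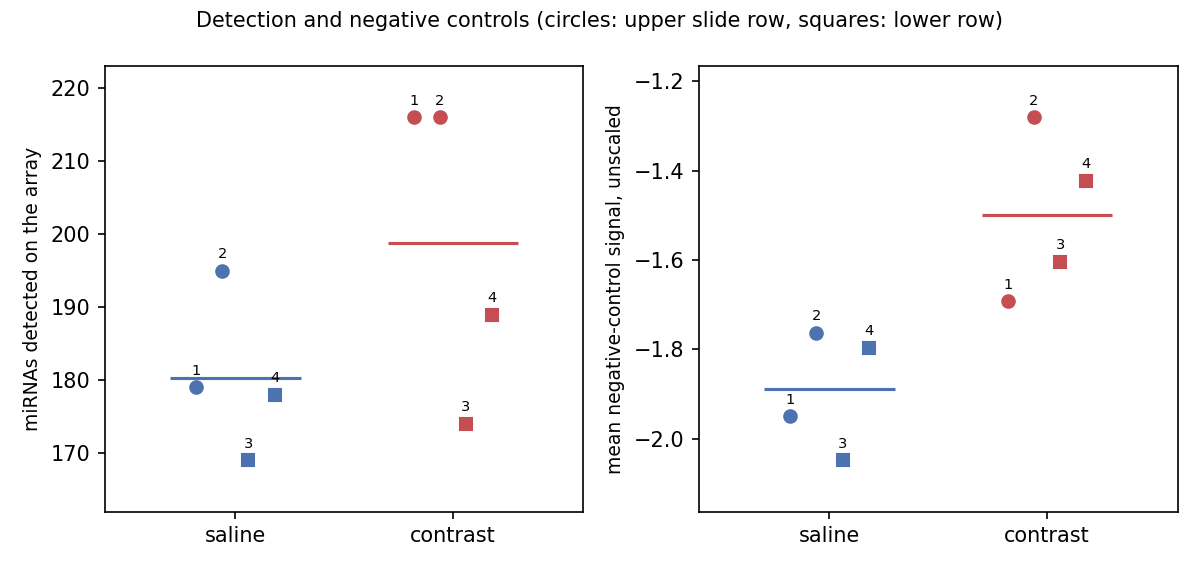
Left, number of miRNAs detected per array, and right, mean signal of negative-control spots before scaling, for saline (blue) and contrast (red) pools, with pool numbers and group means as lines; axes do not start at 0. Detected miRNAs overlap between groups (169 to 195 against 174 to 216), while the negative controls do not.

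MiR-335 and miR-330* were among the miRNAs with more contrast calls, but their signals overlapped. MiR-335 read 5.98, 9.80, 5.62 and 4.51 in saline pools and 7.56, 11, 7.34 and 9.70 in contrast pools, with pool 2 the highest of each group; its log2 difference was 0.50 (SE 0.23, adjusted p = 0.85). MiR-330* read 2.34, 2.55, 1.77 and 2.70 against 2.73, 3.13, 6.25 and 2.51, and its difference of 0.55 (SE 0.27) came largely from contrast pool 3.

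The imprinted Dlk1-Dio3 cluster, from which miR-494 comes, had 37 miRNAs on the array. Of these, 24 were detected on no kidney array, 11 had more calls on contrast arrays and 0 had more on saline arrays. Over the whole array 52 of the 61 partly detected miRNAs had more contrast calls, so this count is near the lean of the array as a whole. Only 3 entered the test: miR-494, which rose, miR-409-3p and miR-379. MiR-409-3p read 12.99, 12.2, 10.2 and 15.4 in saline pools and 12.96, 12.4, 31.1 and 13.2 in contrast pools, so that contrast pool 3 alone was high, and without it the difference of 0.35 became 0.015. MiR-379 overlapped as well, with a difference of 0.15 (SE 0.20). Among the members too dim for the test, miR-134 read 2.80, 2.21, 1.31 and 1.56 against 3.99, 3.60, 5.26 and 3.25, with calls on 0 saline and 2 contrast arrays.

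Groups of miRNAs that mark the cells of the kidney had small log2 differences. Their counts stand beside 1.70% of all 176 passing the test and 106 of 176 with higher means. With so few members in a list, 0 passing says little. The tested tubule miRNAs miR-192, miR-194 and miR-204 had log2 differences of -0.05, 0.011 and 0.043, and 0 of 3 passed. In the miR-30 family, whose members miR-30a and miR-30e the study examined further, 5 of 5 means were higher and 0 passed, from 0.028 for miR-30e to 0.19 for miR-30b-5p; miR-30e was lower in 6 of 26 alternative settings, among them no scaling, quantile normalization, the brightest probe and the authors' processed values. MiR-30a read 1516, 1628, 1633 and 1480 in saline pools and 1743, 1639, 1621 and 1592 in contrast pools, overlapping groups with a 95% interval of the difference of -0.07 to 0.22. In the miR-200 family, which keeps epithelial cells epithelial, 4 of 5 means were higher (3 of 5 without scaling, 5 of 5 with the percentile over all miRNAs and 2 of 5 with the brightest probe, where the median was -0.0033) and 0 passed. Of the 4 endothelial miRNAs 2 had higher and 2 lower means (1 and 3 without scaling) and 0 passed, from -0.096 for miR-221 to 0.092 for miR-126*. Of the 4 tested leukocyte miRNAs 2 were higher and 2 lower (1 and 3 without scaling) and 0 passed, from -0.14 for miR-142-5p to 0.06 for miR-150.

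The lists drawn from injury biology were described in the same way, against 1.70% of all 176 passing the test and 5.11% not overlapping. Of 10 tested miRNAs linked to kidney injury, 6 had higher and 4 lower means (4 and 6 without scaling). The median was 0.023, and 1, miR-494, passed. For 3 (miR-494, miR-188 and miR-24) the groups did not overlap. MiR-188 entered the test only through its contrast calls, and miR-24 is also a strand of the duplicated clusters. The count of 3 is therefore not separate from the results above and supports nothing further. Of 6 miRNAs of the response to low oxygen, 6 had higher means (4 without scaling or with quantile normalization) and 0 passed, with a median of 0.069. MiR-210, the best known of them, read 18.99, 22.8, 25.6 and 18.6 in saline pools and 21.3, 25.5, 28.7 and 23.3 in contrast pools, overlapping groups with a difference of 0.20 (95% interval -0.08 to 0.49). MiR-23a, miR-23b and miR-27a of the low-oxygen list are also strands of the duplicated clusters described above. The count of this list is therefore not separate from that of the clusters. With the same scaling, 106 of all 176 miRNAs had higher means. Of 8 miRNAs of fibrosis, 4 were higher and 4 lower (2 and 6 without scaling, 6 and 2 with the percentile over all miRNAs), and 0 passed. All 8 let-7 family members, which restrain growth, had lower means by small amounts (7 with the percentile over all miRNAs), with a median of -0.06 and 0 passing. The list medians stand beside a median of 0.028 over all 176, and no list was tested as a set.

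**Figure D4:**
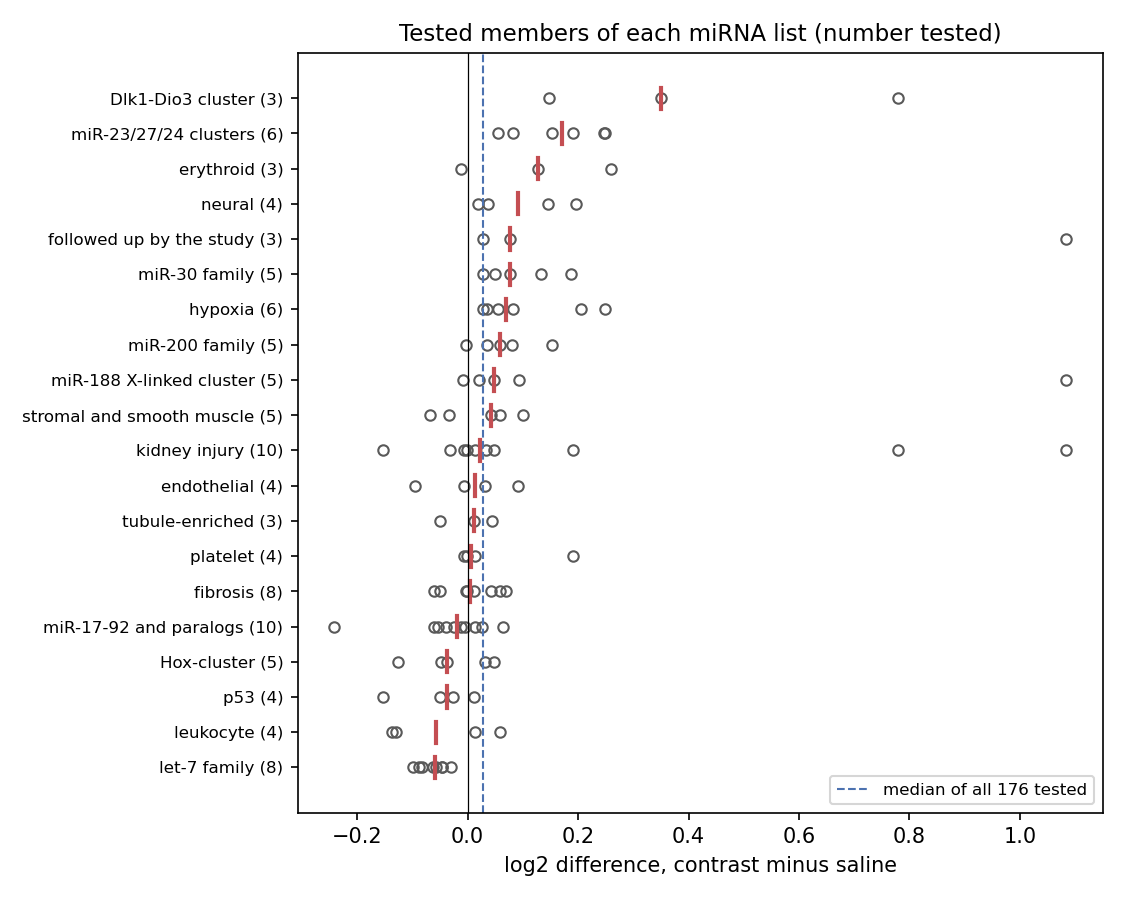
Log2 difference (contrast minus saline) of each tested member (circles) of 20 miRNA lists with at least 3 tested members, with list medians (red bars) and the median of all 176 tested miRNAs (dashed line). The 6 tested strands of the miR-23/27/24 clusters lie between 0.05 and 0.25 and the 8 let-7 members between -0.098 and -0.03.

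The strands of 1 hairpin could be set side by side for 24 pairs in which both were tested. The sign of the difference was the same in 16 pairs, and the median gap between strands was 0.067 on the log2 scale. The widest gap was 0.27, between miR-125a-5p at -0.0047 (SE 0.08) and miR-125a-3p at 0.27 (SE 0.16). No strand of these pairs passed the test. The other strands of the hairpins of miR-327, miR-466b and miR-494 were not among those compared.

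The place of an array on the slide was a further source of spread. Odd columns held saline pools and even columns contrast pools, so column and treatment cannot be told apart, while each of the 2 rows held 2 pools of each group. Within the upper row, the log2 difference of miR-327 was 3.13, that of miR-466b 1.07, that of miR-494 0.98 and that of miR-27a 0.19. Within the lower row these differences were 3.92, 0.96, 0.58 and 0.31. Those of miR-327 rest on undetected saline values, and in the lower row on the floor of 1.79 for saline pool 3, so they are not exact sizes. The left side of the slide (pools 1 and 3 of both groups) lay entirely above the right side (pools 2 and 4) for 10 miRNAs (5.68%), and below it for none. That share is close to the 5.11% that did not overlap between treatments.

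MiR-139-3p showed it most, reading 78.2, 14.6, 75.1 and 17.3 in saline pools and 56.4, 18.7, 69.8 and 18.9 in contrast pools. Pools 1 and 3 were high in both groups and pools 2 and 4 low. Before scaling the kidney values were 41.9 to 79.1 on the left and 16.1 to 21.7 on the right, and on the plasma slide 196 to 892 and 8.87 to 168, again with no overlap of sides. The plasma arrays of pool 4, on the right, were weak throughout, with total signals of 3484 and 7068 against 24171 to 123239 on the others. The other right-side plasma arrays read 111 and 168 for miR-139-3p. The kidney spots of miR-139-3p disagreed on the left: those of 1 probe on saline array 1 had a coefficient of variation of 126%. The other strand of the hairpin, miR-139-5p, read 24.4 to 28.4 in saline pools and 23.3 to 25.8 in contrast pools and showed no such split.

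**Figure D5:**
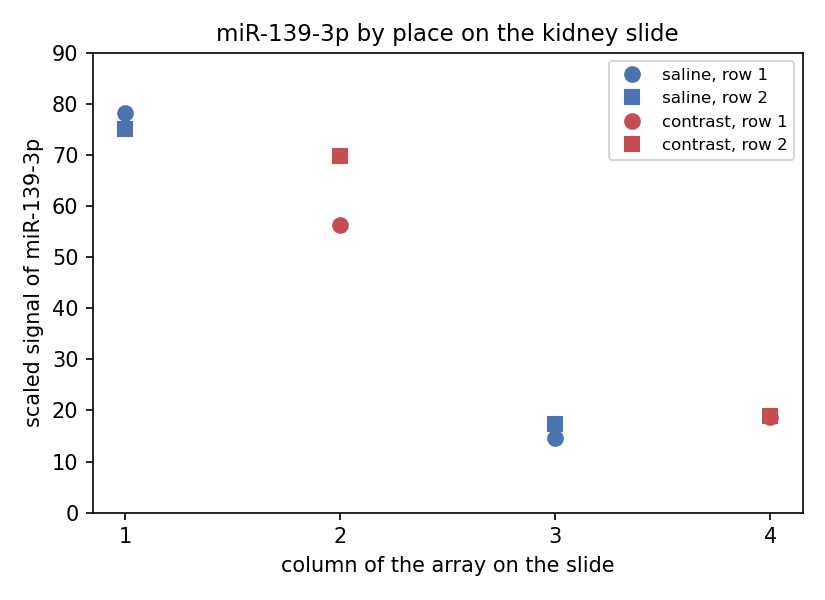
Scaled signal of miR-139-3p (linear axis from 0) by the column of the array on the kidney slide, for saline (blue) and contrast (red) pools in the upper (circles) and lower (squares) row. Columns 1 and 2 lie between 56.4 and 78.2 and columns 3 and 4 between 14.6 and 18.9, in both groups.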

How the data were processed

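Kidney RNA pools were read on 1-colour Agilent rat miRNA arrays with 7000 spots for 350 miRNAs (938 probes, 19 to 21 spots a miRNA). Per the file headers, Agilent Feature Extraction 10.7.3.1 produced the intensity of each spot, with background already subtracted in the deposited values, and called each miRNA detected or not. A series table with log2 values was deposited by the authors too (median 2.28 on every kidney array, correlation 0.997 to 0.999 with the scanner values); its normalization is not given in the sources used here, and it served as an alternative. The number of arrays limits the precision.

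Processed intensities without outlier spots were averaged per probe and per miRNA, then scaled so that the 75th percentile of the 163 miRNAs that all 8 arrays detected was equal between arrays. A floor of 1.79 (each array's lowest detected signal, median of the 8) was applied before log2. It can shrink the log2 difference of a miRNA with values below it, such as miR-327. The values of miR-466b, miR-188 and miR-31 all lay above it. The 176 miRNAs were tested two-sided with limma 3.58.1 (lmFit, eBayes) in R 4.3.3; p-values were adjusted by Benjamini-Hochberg, threshold 0.05. A bound for a miRNA undetected in a group sets the bright group's mean against the higher, per array, of its own and the lowest detected signal. The scripts were tested on simulated data. Single array values were compared with exact permutation tests (scipy 1.17.1). Alternatives were other scalings, backgrounds, floors, probe summaries and filters, the slide row, replicate number or slide side as a block, and leaving out each pool.

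The members and lists were chosen with earlier results of these data known. Named are all miRNAs past the threshold, the next 12 by p, the 8 lower ones with the smallest p, the 6 brightest, those detected on 4 arrays of 1 group and at most 1 of the other, up to 4 members of each list, and the 5 with the largest spread. Sequences came from the RefSeq table (GRCr8), where 16 of the 16 names looked up were found. The plasma arrays were left out but for 1 alternative, detection of miR-327, the values of miR-139-3p and the total signals beside them.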

Additional observations from a re-analysis of the deposited data

Results flagged for a closer look

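Single pools stood apart from the other 3 of their group for 10 of the named miRNAs and for total signal, 11 of 182 groups looked at, by Dixon's gap test at its 95% critical value; chance gives about 1 in 20, a rate that does not hold for the miRNAs named for their large spread, which include miR-188, miR-409-3p and miR-483. Of the 11, 8 were contrast pool 3. That pool was highest for miR-188 (19.997, others 7.35 to 8.58), miR-409-3p (31.1, others 12.4 to 13.2), miR-483 (18.7, others 6.05 to 7.21), miR-330* (6.25, others 2.51 to 3.13) and miR-542-5p (16.4, others 13.5 to 13.7). It was lowest for miR-17-5p (52.3, others 62.6 to 63.9), for endothelial miR-126 (1134, others 1316 to 1319) and for total miRNA signal (59735, others 116820 to 124853). Among saline pools, pool 2 was highest for miR-326 (15.1, others 12.4 to 12.8), pool 3 for miR-23b (2425, others 2289 to 2292) and pool 1 for the smooth muscle miR-143 (894, others 673 to 690).

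Too seldom detected to be tested were 48 miRNAs, of which 3 had every contrast pool above every saline pool and 0 the reverse. Among the 176 tested miRNAs 9 (5.11%) had every contrast pool above. Partly detected miRNAs also leaned to contrast, with more contrast calls for 52 and more saline calls for 4. The 3 were miR-134, with a mean of 4.03 in contrast pools against 1.31 to 2.80 in saline pools, let-7e* (3.69 against 2.25 to 2.96) and miR-339-3p (3.74 against 1.69 to 2.92). All lie near the detection limit, and none was tested.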

How the results depend on the processing

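The number of miRNAs past the threshold (3 of 176) stayed within 1.5 times, a range that includes 2, in most settings. It was 1 without scaling (4 at an unadjusted p under 0.05), 1 with quantile normalization (13), 1 with all 16 arrays in one limma fit (4), 0 with normexp background correction (2), where the offset of 50 compresses dim signals, and 0 among the 163 miRNAs detected on all 8 arrays (8), a filter that leaves out miR-327 and miR-466b. It was 2 or 3 without each pool in turn. A similar number does not mean the same miRNAs, since miR-494 was called in 8 of the 26 alternatives and lost in 18. The numbers were not taken to pair the pools, although same-numbered pools shared a slide row and side: their correlations of deviations were 0.20, 0.59, -0.10 and 0.15, 2 of 4 pools correlated best with their own number, and with the replicate block 3 miRNAs passed. The 9 non-overlapping miRNAs became 14 with the percentile over all miRNAs, 2 without scaling, 4 with spike-in scaling, 4 with normexp and 14 with the brightest probe. Without each pool they were 8 to 15 (15 without saline pool 2 and 15 without contrast pool 1). A smaller group separates more easily, and the tested miRNAs then numbered 176 to 189, so the latter counts are not like for like with the 9. Of 176 intervals, 149 lay within 0.5 of 0, against 0 without scaling, 0 with spike-in scaling and 29 with all 16 arrays. The cause was not tested where none is named. The difference in detected miRNAs was 12.8 to 26.8 without each pool. Over 86 named miRNAs and 26 settings, 2227 values in all, 0 calls reversed, 23 were lost, 6 were gained, and 41 uncalled miRNAs changed sign at least once.

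Pools of 3 rats, 4 a group and 1 time point limit these results, as do the shared column of treatment and slide, the letter codes, and signals near background for miR-466b, miR-188, miR-31 and the saline level of miR-327.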
